A study of Equus caballus with 12 samples.

Results

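YTHDF2 (ENSECAG00000023108) and G3BP2 (ENSECAG00000007917) are 2 of the 11425 genes measured by 3′ RNA sequencing in pools of horse oocytes after in vitro maturation. They were selected by their Ensembl identifiers with their values in these libraries known, so their own levels and differences are given as a description and without a test between groups. All oocytes came from slaughterhouse ovaries, were matured in vitro with follicle-stimulating and luteinizing hormone, and were denuded and checked for a polar body. FR (5 libraries) was the fresh control, VMAT (3 libraries) was vitrified and warmed after maturation, and VIM (4 libraries, named VGV in the labels) was vitrified as immature oocytes within their corona radiata, then warmed and matured. A library was made from a pool of 23 oocytes on average. Of 5 replicates collected in each group, the authors kept all FR samples and 4 each of VIM and VMAT after checking RNA amount and integrity, and later dropped 1 further VMAT sample of low quality, so that samples were lost only from the vitrified groups. Breed and age of the mares were not given in the sources used here, and the labels do not say which pools shared a collection day, so the spread between libraries may be partly technical. In such pools, fewer oocytes with a transcript and less transcript per oocyte cannot be told apart. The paper links mRNA changes in oocytes to decay and to polyadenylation of stored RNA, and neither was tested here.

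A full-grown oocyte makes almost no new RNA, so its maturation and the first divisions of the embryo draw on mRNA stored during growth. YTHDF2 binds mRNA that carries N6-methyladenosine (m6A) and brings in the CCR4-NOT deadenylase, which shortens the poly(A) tail and starts decay, and in mice it is a maternal factor needed for oocyte competence. G3BP2 is an RNA-binding protein that, with its paralog G3BP1 and the partner CAPRIN1, builds stress granules, in which untranslated mRNA gathers under stress. Another partner that binds G3BP proteins is USP10.

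The deposited values are normalized counts, that is, reads per gene divided by a DESeq2 size factor for each library. Whole reads could be recovered from them, and 1636620 to 12166950 reads per library lay on genes, with VMAT replicate 1 and VIM replicate 2 (2123138 reads) at the low end and VMAT replicate 2 at the high end. Of the 12 oocyte markers listed, 9 could be found by name and each of them was above 0 in all 12 libraries, for example GDF9 at 463 to 4413 and BTG4, which is also in a list used further on, at 3177 to 8872. Not all were high throughout: OOSP2 ranged from 1.14 to 369, and ZAR1 was at 3.11 in its lowest library. Of 12 cumulus and granulosa cell markers only HAS2 could be found by name, at 641 to 2144 in VIM, 254 to 1755 in VMAT and 462 to 1239 in FR. Of 6 blood and immune cell markers none could be found by name, so RNA from these other cells was not assessed.

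YTHDF2 was high in every fresh pool and near the detection floor in most vitrified pools. In FR, the normalized counts were 960, 327, 237, 568 and 925 in replicates 1 to 5, which came from 286 to 1292 reads. In VIM, replicate 1 was at 255, whereas replicates 2, 3 and 4 were at 4.89, 6.03 and 1.96. In VMAT, replicate 2 was at 238, and replicates 1 and 3 were at 6.22 and 3.54. In 5 of the 7 vitrified libraries YTHDF2 was thus supported by only 2 to 5 reads, around the 3 reads taken as the smallest detectable amount, whereas the other vitrified libraries had 415 and 1900 reads. For the library with 2 reads in VIM, the exact 95% Poisson interval ran from 0.237 to 7.06 in normalized counts, and for FR replicate 3, the lowest fresh library, it ran from 215 to 261. Such intervals cover counting error only.

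The mean normalized count of YTHDF2 in FR was 603 ± 332 (SD, n = 5), compared with 82.6 ± 135 (SD, n = 3) in VMAT and, in VIM, 66.9 ± 125 (SD, n = 4). On the scale of log2 of the normalized count plus 1, the fold change (first group over second, ± its standard error, SE) was -5.30 ± 1.59 SE (limma) in VIM vs. FR and -4.72 ± 1.61 SE for VMAT against FR. Each SE given here is the moderated one of limma. It is drawn towards the spread of genes of similar level, so it can differ from a gene's own spread. Fits to the recovered reads, which compare mean counts, gave smaller values of -3.11 (edgeR) and -3.20 (DESeq2) in the former and of -2.38 and -2.96 in the latter. The comparisons share the FR libraries. The groups nevertheless touched, since VIM replicate 1 was above FR replicate 3, and VMAT replicate 2 was above it by less than 1 normalized count (237.95 against 237.37). Among all genes tested, every VIM sample was below every FR sample for 0.639% of 7351 genes, and every VMAT sample was below every FR sample for 1.23% of 8305 genes, and YTHDF2 was in neither set. The order of the group means, FR above VMAT above VIM, was not resolved between the vitrified groups, where the log2 fold change was -0.58 ± 2.90 SE in VIM vs. VMAT. Without VMAT replicate 2 it was 1.22.

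G3BP2 showed the opposite distribution. In FR, replicates 1, 2, 3 and 5 were at normalized counts of 2.16, 2.29, 2.24 and 2.86, from 2 to 4 reads each, and replicate 4 was at 25.2 from 50 reads. In VIM, replicates 1, 3 and 4 were at 115, 748 and 587, and replicate 2 was at 3.26 from 2 reads. In VMAT, replicates 2 and 3 were at 163 and 587, and replicate 1 was at 9.34 from 3 reads. Hence 5 of the 7 vitrified libraries held at least 187 reads of G3BP2, and the remaining ones were within the range of the fresh pools. The exact 95% Poisson interval of VMAT replicate 1 (1.93 to 27.3) covered all 5 FR values.

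For G3BP2, VIM had a mean of 363 ± 360 (SD, n = 4), VMAT of 253 ± 299 (SD, n = 3) and FR of 6.95 ± 10.2 (SD, n = 5). The log2 fold changes of 4.58 ± 2.22 SE in VIM vs. FR and 4.30 ± 2.50 SE for VMAT against FR had larger errors than those of YTHDF2, and in each vitrified group 1 library was at the fresh level. With single libraries left out, the former lay between 3.70 (without VIM replicate 3) and 6.19 (without VIM replicate 2), and the latter between 3.02 (without VMAT replicate 3) and 5.93 (without VMAT replicate 1). Unlike for YTHDF2, fits to the recovered reads gave larger values, of 5.53 (edgeR) and 5.69 (DESeq2) in VIM vs. FR. For VMAT against FR they gave 5.15 and 5.21. In VIM vs. VMAT the log2 fold change was 0.28 ± 2.02 SE, so the vitrified groups did not differ beyond their spread, and it was -1.36 without VMAT replicate 1. Every VIM sample was above every FR sample for 0.952% of the genes tested, and every VMAT sample was above every FR sample for 1.96%, and G3BP2 was in neither set.

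**Figure D1:**
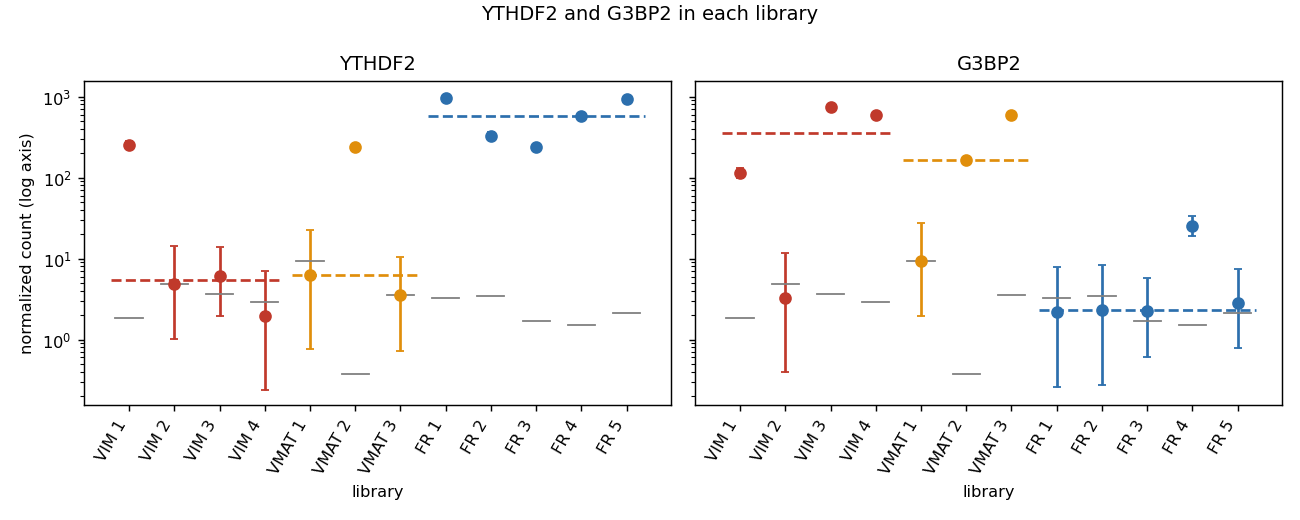
Normalized counts (log axis) of YTHDF2 and G3BP2 in the 4 VIM, 3 VMAT and 5 FR libraries. Points are libraries with exact 95% Poisson intervals, dashed lines are group medians, and short grey lines mark the value of 3 reads in that library. YTHDF2 is at 237 or more in every FR library and at 6.22 or less in 5 vitrified ones, and G3BP2 is at 2.16 to 25.2 in FR and at 115 or more in 5 vitrified ones.

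Read together, the genes divided the vitrified libraries into 3 kinds, with 10 reads or fewer taken as low and 100 reads or more as high (limits set after seeing the values). In VIM replicates 3 and 4 and VMAT replicate 3, YTHDF2 was low and G3BP2 high, the reverse of the fresh pools. In VIM replicate 1 and VMAT replicate 2 both genes were high, and in VIM replicate 2 and VMAT replicate 1 both were low. No FR library was of any of these kinds: YTHDF2 was high in all 5, and G3BP2 was low in 4 of them and at 50 reads in replicate 4.

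These kinds lined up with library depth. The 2 vitrified libraries in which both genes were low had the fewest reads of all 12 libraries (1636620 and 2123138), the 3 with low YTHDF2 and high G3BP2 had 2447215 to 2964979 reads, and the 2 in which both were high had 3930366 and 12166950 reads. The number of genes above 0 was 5470 and 6210 in the first kind, 6158 to 6542 in the second, and 6889 and 9504 in the third. FR replicate 4, the fresh library with the most G3BP2, was also the deepest of its group (4715119 reads). FR libraries of 2740837 and 2833957 reads, within the range of the second kind, held 286 and 890 reads of YTHDF2 and 2 reads each of G3BP2. The part of depth in the differences was not tested. When the libraries were scaled to equal totals instead, the log2 fold change in VIM vs. FR was -5.40 for YTHDF2 and 4.48 for G3BP2. This scaling changes only the divisor of the same reads, so it is not a test of depth.

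**Figure D2:**
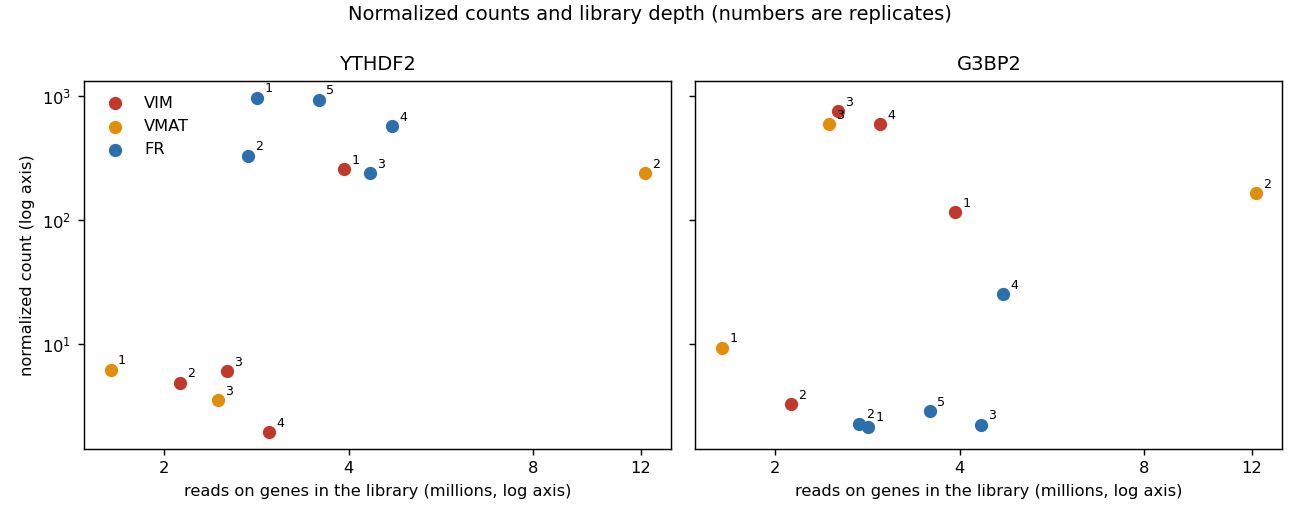
Normalized count (log axis) of YTHDF2 and G3BP2 against the reads on genes in each library (log axis), with one point per library, coloured by group and numbered by replicate. The vitrified libraries with both genes low are the 2 with the fewest reads. The FR libraries of similar depth to the middle vitrified ones have YTHDF2 at 327 or more and G3BP2 below 3.

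For other genes too, pools of one group often lay on both sides of the limits of 10 and 100 reads. Of 3530 genes with a mean normalized count of at least 100, 50.1% had a VIM library with 10 reads or fewer beside one with 100 or more, and this held for 51.0% in VMAT and 53.1% in FR. YTHDF2 and G3BP2 were among these genes in VIM and in VMAT, and neither was in FR. Both limits are in reads and were not scaled for depth. Size factors ran from 0.321 to 7.98 among VMAT libraries, so a gene with equal normalized counts there could meet both limits. Those of VIM ran from 0.614 to 1.63, and those of FR from 0.874 to 1.98. How far the normalized counts of these genes differed was not tested. The share of the 3530 genes at 10 reads or fewer was 40.7% in VMAT replicate 1 and 33.7% in VIM replicate 2, against 19.2% to 30.9% in FR libraries and 5.27% in VMAT replicate 2.

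Few genes showed the read pattern of either gene, with limits chosen after the values were seen. At least 100 reads in all 5 FR libraries were found for 1024 genes (8.96% of 11425), and 4 of these also had 10 reads or fewer in at least 5 of the 7 vitrified libraries. Besides YTHDF2 these were TM9SF4, PCGF1, a component of a Polycomb repressive complex, and MRPL39, a protein of the mitochondrial ribosome. MRPL39 had 4 to 7 reads in VIM and 199 to 683 in FR, and PCGF1 had a median of 7.5 reads in VIM and 341 in FR. Each also had high vitrified libraries, with up to 709 reads of MRPL39 in VMAT, and up to 690 of PCGF1 in VIM and 1842 in VMAT. The pattern of G3BP2, at least 100 reads in at least 5 of 7 vitrified libraries and 10 or fewer in at least 4 of 5 FR libraries, was found for 23 genes (0.201%). Among them were TOMM70, a receptor for mitochondrial protein import, TSC1, an inhibitor of mTORC1 signalling, and RCAN3, an inhibitor of calcineurin.

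The genes most like YTHDF2 and G3BP2 were found by Pearson's r of log2 values over the 12 libraries, among 6962 other genes above 0 in at least 6 libraries. For YTHDF2 these were ORC5 (r = 0.90), a subunit of the origin recognition complex, BNIP3L (r = 0.89), a mitophagy receptor, ENSECAG00000018511 (r = 0.89), DPF1 (r = 0.89) and PRELID3B (r = 0.87). BNIP3L was at 433 to 1998 in FR, 19.3 to 635 in VIM and 55.4 to 575 in VMAT. For G3BP2 they were ENSECAG00000013011 (r = 0.96), ENSECAG00000012175 (r = 0.94), ENSECAG00000034189 (r = 0.94), TBC1D22B (r = 0.93) and RCAN3 (r = 0.90). TBC1D22B was at 1.63 in VIM replicate 2 and at 0 in VMAT replicate 1, and at 97.6 to 1059 in the other vitrified libraries, so it was low in the same 2 libraries as G3BP2, and in FR it was at 0.716 to 17.7. Since these genes were picked for their likeness across all groups, and all libraries enter with their depth, the values of r are a description only.

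**Figure D3:**
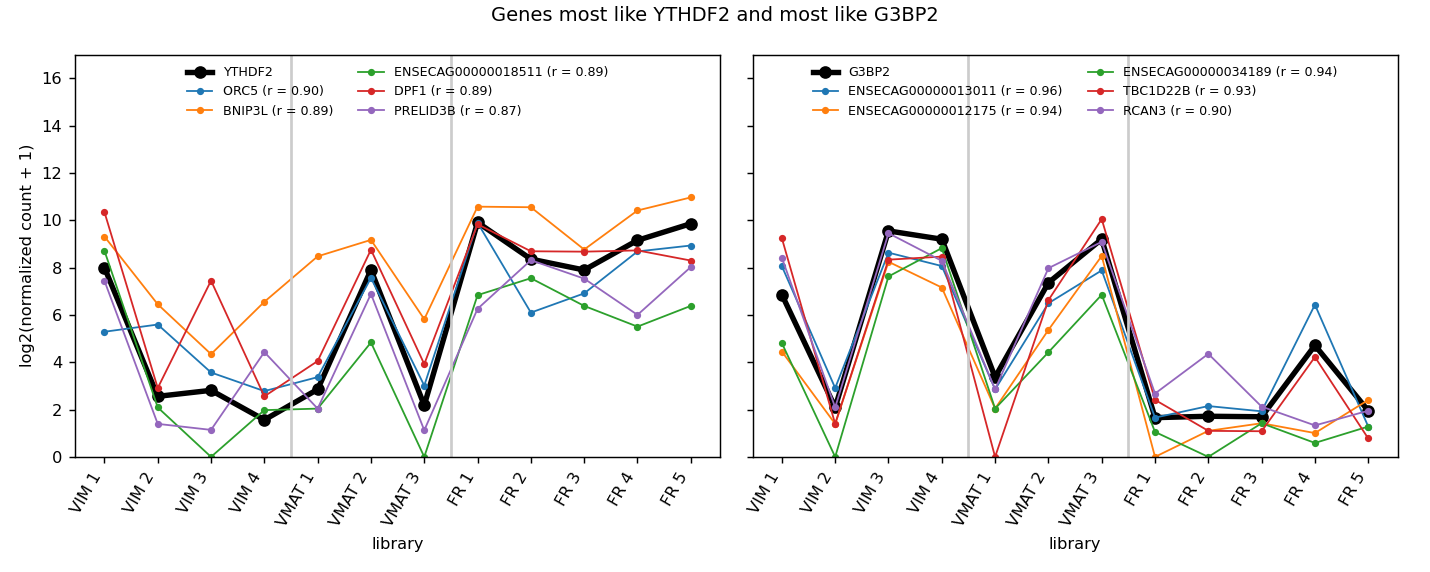
Log2 of the normalized count plus 1 in the 12 libraries for YTHDF2 and G3BP2 (black) and the 5 genes most like each (coloured, with Pearson's r). The genes like G3BP2 are low in VIM replicate 2 and VMAT replicate 1 together with it. Those like YTHDF2 have higher medians in FR than in VIM and VMAT, but all overlap FR in VIM, VMAT or both. DPF1 (1301) and ENSECAG00000018511 (419) in VIM replicate 1 are above every FR library. ORC5 in FR replicate 2 (67.5) is below its value in VMAT replicate 2 (188).

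Other genes that act on the fate of maternal mRNA were then examined in 6 lists of 118 genes. Because the files pair only 2569 identifiers with a symbol, 38 of the 118 could be found by name, and the paralogs YTHDF3 and G3BP1 and the partners CNOT1 and CAPRIN1 were not analysed here. The symbols came from tables sorted by fold change and shortened, so named genes leaned towards lower values in vitrified oocytes, with a median log2 fold change of -0.27 in VIM vs. FR and -0.31 for VMAT against FR, against -0.12 and 0.01 over all genes tested. With limma, 0 of the 38 genes passed the thresholds (adjusted p no higher than 0.05 by the Benjamini-Hochberg method, and a log2 fold change of 1 or more in either direction) in VIM vs. FR, VMAT vs. FR or VIM vs. VMAT, and neither did any other gene (0% of 7351, 8305 and 7627 genes tested). At an unadjusted p under 0.05 there were 1 gene higher and 1 lower in VIM vs. FR, 0 for VMAT against FR and 2 higher in VIM vs. VMAT, where the background in either direction over all genes was 3.78%, 3.62% and 2.98%. By direction, 2.12% of all genes were higher and 1.66% lower in VIM vs. FR, 2.41% and 1.22% for VMAT against FR, and 0.97% and 2.01% in VIM vs. VMAT. Among the 2569 named genes, from which the lists were filled, 45 were higher and 84 lower in VIM vs. FR, 23 and 93 for VMAT against FR, and 59 and 41 in VIM vs. VMAT. DESeq2 on the recovered reads called 1 of the 38 genes in VIM vs. FR and 0 in both other comparisons, against 6.91%, 4.3% and 3.93% of all genes, and edgeR called 0 in each (0%, 0.012% and 0.0131% of all genes). In data simulated with the median spread of these libraries for every gene, limma and edgeR also missed strong changes. A count of 0 therefore does not show that these genes were alike between groups.

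The closest relative of YTHDF2 that could be measured was YTHDF1, another cytoplasmic m6A reader. Its reads in FR replicates 1 to 5 were 15, 19, 506, 14 and 182, in VIM replicates 1 to 4 they were 503, 7, 61 and 24, and in VMAT they were 8, 586 and 118. The groups overlapped fully, and the log2 fold change of YTHDF1 was 0.32 ± 1.91 SE (limma, adjusted p = 0.991) for VIM against FR and 0.65 ± 2.06 SE (limma, adjusted p = 0.994) for VMAT against FR. YTHDF1 did not follow YTHDF2 among the fresh pools either, being under 20 reads in FR replicates 1, 2 and 4. Among the other m6A readers, YTHDC2, a helicase of germ cells, had medians of 569 in FR, 267 in VIM and 100.2 in VMAT, and HNRNPA2B1, a nuclear reader, 398, 484 and 10.6. The 4 readers found had a median log2 fold change of -0.33 in VIM vs. FR and -0.47 for VMAT against FR.

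Of the writers and erasers of m6A, WTAP, ZC3H13 and ALKBH5 were found. ZC3H13, a subunit of the methyltransferase complex, was high in all libraries, at 2252 to 6426 in FR, 1894 to 5255 in VIM and 796 to 6034 in VMAT, with a log2 fold change of -0.40 ± 0.45 SE (limma, adjusted p = 0.91) in VIM vs. FR. For WTAP, which recruits that complex, every VIM sample was above every FR sample, but the log2 fold change was 0.80 ± 1.17 SE (limma, adjusted p = 0.931). The SDs of its own log2 values, 0.495 in VIM and 0.243 in FR, were smaller than this moderated SE. WTAP was the only one of the 38 list genes with such a separation upwards, which 0.952% of all genes had.

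Among the 7 deadenylation genes found, CNOT2, a subunit of CCR4-NOT, had the smallest limma p in each comparison with FR. It had reads of 458, 455, 1687, 6 and 514 in FR, of 0, 5, 4 and 856 in VIM and of 1, 1184 and 3 in VMAT. The same VMAT libraries were thus low for CNOT2 and YTHDF2, but in VIM replicate 4 and not replicate 1 was the high one. Its log2 fold change was -3.82 ± 2.09 SE (limma, adjusted p = 0.902) for VIM against FR and -3.87 ± 2.02 SE (limma, adjusted p = 0.95) for VMAT against FR, with 1 FR library at 6 reads. CNOT3 had a log2 fold change of -0.35 in VIM vs. FR and of -3.59 ± 2.18 SE (limma, adjusted p = 0.95) for VMAT against FR. Over the 7 genes the median log2 fold change was -0.30 and -0.13 in the same order.

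The 5 decapping and decay genes found included TUT7, which adds uridines to short poly(A) tails, EDC4, a scaffold of decapping, and EXOSC9, a subunit of the RNA exosome. TUT7 was at 845 to 1492 in VIM, 464 to 1046 in VMAT and 51.5 to 1918 in FR. EDC4 was at 5.87 or less in VIM replicates 2, 3 and 4 and at 196 in replicate 1, and thus split the VIM libraries as YTHDF2 did. In FR, however, EDC4 ran from 3.43 to 387, with a log2 fold change of -1.44 ± 2.26 SE (limma, adjusted p = 0.942) in VIM vs. FR. EXOSC9 was at 104 to 221 in VMAT and 1.43 to 423 in FR (log2 fold change 2.63 ± 2.14 SE, limma, adjusted p = 0.95).

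Of the stress granule genes, USP10, a deubiquitinase that binds G3BP proteins, had reads of 12, 559, 808, 1142 and 8 in FR. It was at 1254, 96, 458 and 82 reads in VIM and at 7, 3200 and 518 in VMAT. USP10 was thus high in 3 fresh pools and low in the other two, and for USP10 the log2 fold change was 1.31 ± 1.56 SE (limma, adjusted p = 0.915) for VIM against FR and 0.70 ± 1.81 SE (limma, adjusted p = 0.985) for VMAT against FR. ATXN2L, an ataxin-2 relative found in stress granules, moved against G3BP2 in VIM. It had 3, 34, 5 and 40 reads in VIM against 73 to 689 in FR, so that every VIM sample was below every FR sample (1 of the 38 list genes, against 0.639% of all genes). The log2 fold change of ATXN2L was -4.20 ± 1.66 SE, at an adjusted p of 0.902 with limma and 0.0274 with DESeq2, and it was the list gene that DESeq2 called. In data simulated with the median spread of these libraries for every gene, most DESeq2 calls were false. Real genes differ in spread, so the simulation does not say whether the call of ATXN2L was false. In VMAT, ATXN2L was at 9.34, 308 and 60.1, and it overlapped FR. Of the 10 stress granule genes found, 7 had a negative fold change in VIM vs. FR and 5 for VMAT against FR, with medians of -0.56 and -0.67. In the same order, 3903 of 7351 and 4127 of 8305 of all genes tested were negative, and 1516 and 1530 of the 2569 named genes. PABPC4, a cytoplasmic poly(A)-binding protein, was at 168, 354 and 49.5 in VMAT and at 61.8 to 1496 in FR. FMR1, an RNA-binding repressor of translation, was at 796 to 898 in 3 VIM libraries and at 17.9 in replicate 2, against 0 to 106 in VMAT.

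The 9 genes found for storage and polyadenylation of maternal mRNA, of 25 listed, had median log2 fold changes of 0.34 in VIM vs. FR, -0.24 for VMAT against FR and 2.59 in VIM vs. VMAT. In the same order, the medians were -0.12, 0.01 and -0.08 over all genes tested, and -0.27, -0.31 and 0.02 over the named genes. EIF4ENIF1, which binds the cap-binding protein eIF4E and keeps mRNA untranslated, was at 813 to 2866 in VIM, 33.0 to 890 in VMAT and 18.3 to 1762 in FR. EIF4ENIF1 had a log2 fold change of 2.91 ± 1.24 SE (limma, adjusted p = 0.902) for VIM against FR and 2.74 ± 1.14 SE (limma, adjusted p = 0.967) in VIM vs. VMAT. ZAR1, an oocyte protein that binds stored maternal mRNA, had 140 to 352 reads in FR. In VMAT it had 1, 267 and 7 reads, and after normalization every VMAT sample (3.11 to 33.4) was below every FR sample (115 to 252), as for 1.23% of all genes. For ZAR1 the log2 fold change for VMAT against FR was -3.83 ± 1.93 SE (limma, adjusted p = 0.95), and in VIM it was -0.46 ± 1.48 SE, with replicate 3 alone at 4 reads. Between the vitrified groups, PABPN1L and CPSF2 were higher in every VIM sample than in every VMAT sample (2 of the 38 list genes, against 1.72% of all genes), and CNOT7 and ATXN2 were lower in every VIM sample (2 of 38, against 2.78%). CPSF2, a subunit of the cleavage and polyadenylation complex, differed by 3.25 ± 1.62 SE on the log2 scale (limma, adjusted p = 0.967).

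**Figure D4:**
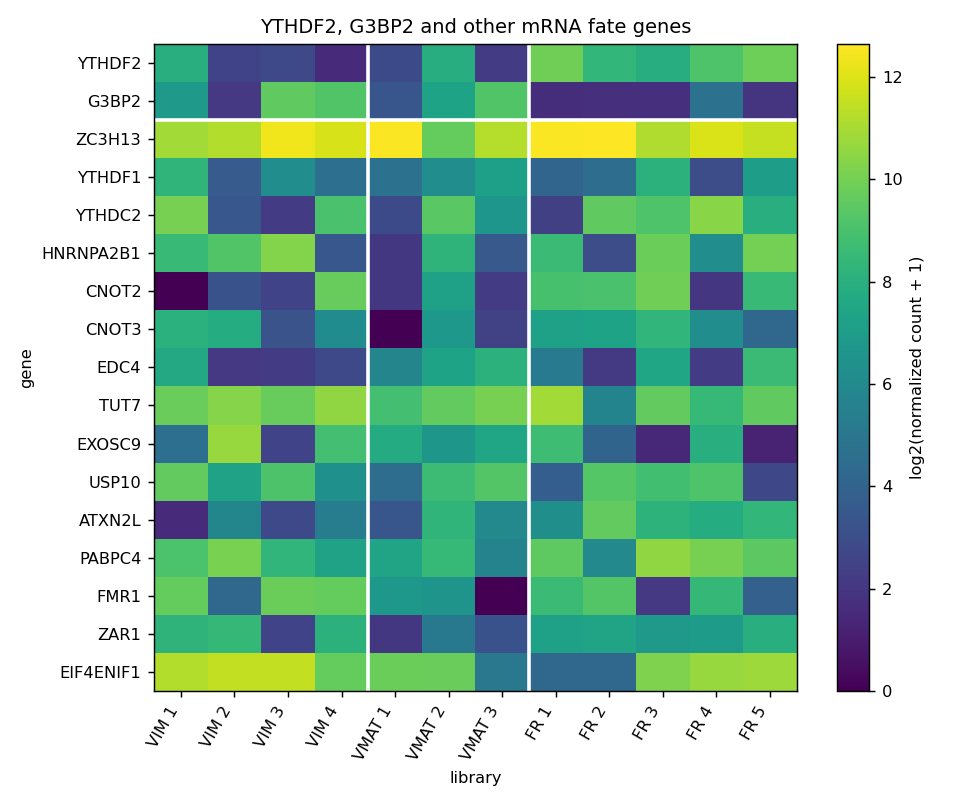
Log2 of the normalized count plus 1 (colour) of YTHDF2, G3BP2 and 15 other mRNA fate genes in the 12 libraries, with white lines between VIM, VMAT and FR. ZC3H13 is high throughout, and ATXN2L is lower in the 4 VIM libraries than in any FR library. Most other genes have both high and low libraries in VIM, VMAT or FR, though often not in all of these groups.

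**Figure D5:**
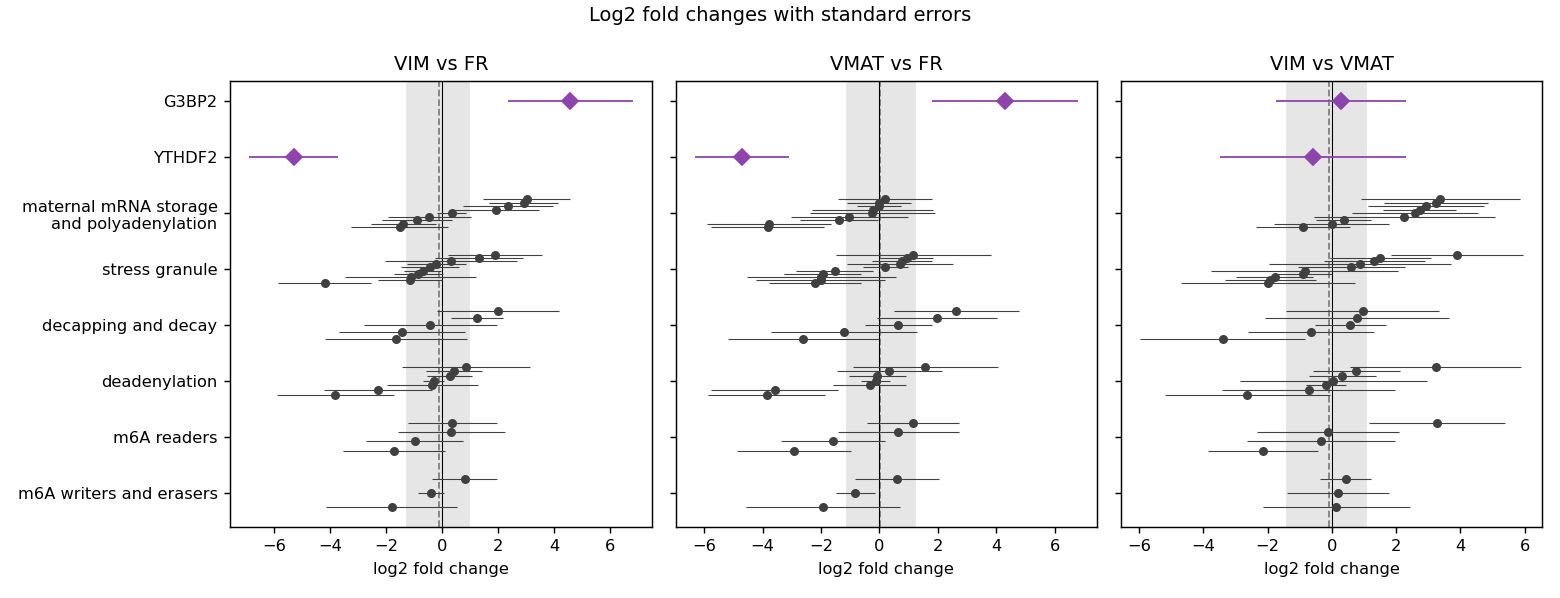
Log2 fold changes (limma, log2 of the normalized count plus 1, first group over second) with moderated standard errors for the 38 list genes (grey points) and for YTHDF2 and G3BP2 (purple) in each comparison. The grey band is the interquartile range and the dashed line the median of all genes tested; YTHDF2 (-5.30 and -4.72) and G3BP2 (4.58 and 4.30), chosen with these values known, lie outside the range of the list genes (-4.20 to 3.02 and -3.87 to 2.63) in VIM vs. FR and VMAT vs. FR and near 0 in VIM vs. VMAT.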

How the data were processed

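Reads had been trimmed (Trim Galore), aligned to EquCab3.0 with the annotation of Ensembl release 108 (STAR), treated for unique molecular identifiers (UMI-tools) and counted by gene (RSEM). The only file used was the table the authors deposited, whose unit is a signal, namely counts over a DESeq2 size factor of the library. All values were whole multiples of a common step per library within a tolerance of 0.001 (100.0%), so whole reads were recovered, and 3 reads were taken as the floor. Groups followed the labels. YTHDF2, G3BP2 and the gene lists were chosen with earlier results of these data known.

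Each comparison used its own samples. Genes were fitted if above 0 in a number of samples no smaller than the smaller group (4 in VIM vs. FR, 3 otherwise). The fit was limma 3.58.1 in R 4.3.3 with an eBayes trend, on log2 values after adding a pseudocount of 1. The p-values were adjusted over all genes tested, by the Benjamini-Hochberg method. Alternatives were pseudocounts of 0.5 and 10, no filter, a normalized count of at least 10, equal totals, edgeR 4.0.16, DESeq2 1.42.0, a replicate block and leaving out each library. The fits were tested on simulated data, in which every gene was given the same spread. With little spread between libraries each tool found all changed genes. With the median spread of these libraries, limma and edgeR found none of them and DESeq2 made more false calls than true ones. Genes named were YTHDF2, G3BP2, their paralogs and partners, the gene of smallest limma p per list and comparison, and the 5 most like each. The genes named for read patterns or for groups that did not overlap were chosen after their values were seen. Symbols came from the supplementary files of the paper (22.5% of identifiers). Columns there with the authors' fold changes and p-values were not used. Figures were drawn with matplotlib 3.10.9.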

Additional observations from a re-analysis of the deposited data

Results flagged for a closer look

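Groups of 4 or 5 libraries were searched for a library that stood apart from the others, with Dixon's 95% limit for the gap to the nearest library as a share of the group's range. This was done for YTHDF2, G3BP2 and the 15 other mRNA fate genes named, in VIM and in FR. A library stood apart in 6 of 34 groups searched. YTHDF2 and G3BP2 were chosen on these values and most other genes for a small p, and the limit assumes values of a more even spread, so the entries are a description and their number is not set against chance.

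YTHDF2 was at a normalized count of 255 in VIM replicate 1, and the other VIM libraries were between 1.96 and 6.03. G3BP2 was at 25.2 in FR replicate 4, against 2.16 to 2.86 in the other FR libraries. CNOT2 was at 837 in VIM replicate 4, with the other VIM libraries at 8.15 or less, and EDC4 was at 196 in VIM replicate 1, with the others at 3.26 to 5.87. ZAR1 was at 4.82 in VIM replicate 3, below the range of 283 to 337 in the other libraries of that group. FMR1, an RNA-binding protein of stress granules, was at 17.9 in VIM replicate 2 and at 796 to 898 in the others. In VIM, replicate 1 stood apart for both YTHDF2 and EDC4, and the other genes had other libraries standing apart.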

How the results depend on the processing

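The fold changes of YTHDF2 and G3BP2 against FR kept their sign under every alternative run. With each library left out in turn, they lay between -6.72 and -4.58 for YTHDF2 and between 3.70 and 6.19 for G3BP2 in VIM vs. FR, and between -6.52 and -3.66 and between 3.02 and 5.93 in VMAT vs. FR. For YTHDF2, edgeR gave -3.11 and DESeq2 -3.20 in VIM vs. FR, whereas these were -2.38 and -2.96 for VMAT against FR. For G3BP2 they were further from 0 than with limma, at 5.53 and 5.69 in VIM vs. FR and 5.15 and 5.21 for VMAT against FR. The edgeR and DESeq2 fits compare mean counts, to which 1 high library adds most, and limma compares mean log2 values. Between VIM and VMAT the sign was not stable. With a replicate block the fold change was 0.14 for YTHDF2 and -0.48 for G3BP2, and with each library left out it lay between -2.0 and 1.22 and between -1.36 and 1.89. Without the 2 vitrified libraries of fewest reads, an alternative chosen after seeing the data, it was -0.92 and 0.25.

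Of the other mRNA fate genes, 0 passed the thresholds in any comparison with each library left out (0 to 0) and under each other alternative except DESeq2, which called 1, ATXN2L, in VIM vs. FR. Since limma and edgeR also made no calls among strong changes simulated with the median spread of these libraries, these counts say nothing about stability. At an unadjusted p under 0.05, limma found 1 to 3 of them in VIM vs. FR, 0 to 4 in VMAT vs. FR and 1 to 2 in VIM vs. VMAT with each library left out, the 4 being without VMAT replicate 2. The replicate numbers share no stated source, and deviations of same-numbered libraries correlated between -0.03 and 0.01 over 10 pairs, so the block was not taken as a pairing. A value of 3 reads was 0.376 in VMAT replicate 2 and 9.34 in VMAT replicate 1, so low levels in the latter could not be resolved.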
